A study of Mus musculus with 12 samples.

Results

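Hox genes encode homeodomain transcription factors that lie in 4 clusters, A to D, on separate chromosomes. Every symbol in the array's annotation made of Hox, a cluster letter and a number was taken, on probe sets assigned to exactly 1 gene. This gave 37 Hox genes of 19938 genes measured. Cluster A had 10 of them, and clusters B, C and D had 9 each. By paralogue group, the number in the symbol, 7 were anterior (groups 1 to 3), 14 central (4 to 8) and 16 posterior (9 to 13). Each had a single probe set.

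The arrays measured RNA from mouse embryonic fibroblasts in 4 groups of 3 samples: D1D2KO differentiated, D1D2KO undifferentiated, WT differentiated and WT undifferentiated. D1D2KO, as read with the series title, names cells without the triacylglycerol-forming acyltransferases DGAT1 and DGAT2. All embryos were taken at embryonic day 14, all samples carry the strain label C57BL6, and all cells grew in DMEM with serum. Differentiated cells of both genotypes had been brought to confluence and then given troglitazone at 15 µM, isobutylmethylxanthine at 500 µM, dexamethasone at 1 µM and insulin at 5 µg/ml. Insulin with troglitazone and then plain medium followed. The labels call the differentiated samples adipocytes and the undifferentiated ones fibroblasts. The samples are described as biological replicates, but the embryo or culture behind each is not given, so p-values measure only the spread between these samples.

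Along a Hox cluster the order of the genes mirrors the order of the body regions that express them. Genes at the 3′ end, with low numbers, pattern the hindbrain and neck, and genes at the 5′ end, with high numbers, pattern the lumbar, sacral and caudal trunk and the distal limb. Fibroblasts and fat cells keep much of the Hox pattern of the site they came from, and in fat the pattern differs between depots. HOX proteins bind DNA with cofactors of the PBX and MEIS families. Polycomb complexes hold silent Hox genes in repressed chromatin, and Trithorax complexes keep active ones transcribed.

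The samples behaved as their state labels say, and both targeted genes were lower in D1D2KO. Dgat1 read 8.26, 8.03 and 7.75 (log2 signal) in D1D2KO differentiated samples, against 9.36, 9.33 and 9.53 in WT differentiated samples. Dgat2 read 8.37, 8.62 and 8.66 in D1D2KO differentiated samples, against 10.28, 9.86 and 10.53 in WT differentiated samples. In undifferentiated cells Dgat1 read 5.56, 5.597 and 5.66 in D1D2KO samples, against 6.94, 6.93 and 6.98 in WT samples. Dgat2 read 5.44, 5.50 and 5.51 in D1D2KO undifferentiated samples, against 5.94, 5.98 and 5.95 in WT undifferentiated samples. Every D1D2KO sample was below every WT sample of its state, and where the probes lie relative to the deleted parts is not given in the sources used here. The Dgat2 difference between undifferentiated samples (-0.47, limma adjusted p = 0.034) was lost under 7 of 15 alternatives, with an adjusted p of up to 0.126. All 10 adipocyte markers rose with differentiation in both genotypes. Fibroblast markers fell at 9 of 10 genes in D1D2KO and 8 of 10 in WT, and their mean signal was 10.16 to 10.29 in D1D2KO differentiated and 11.10 to 11.13 in D1D2KO undifferentiated samples. The undifferentiated samples also carried signal for macrophage markers, of which 7 of 8 fell with differentiation in each genotype, and for neural markers, of which 5 of 5 fell in each. In bulk RNA, fewer cells of a type and less RNA per cell cannot be told apart.

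The genotypes also differed in sex-linked genes. Uty, on the Y chromosome, read 2.68 to 3.17 over the 6 D1D2KO samples, against 6.72 to 7.07 over the 6 WT samples. Eif2s3y read 2.64 to 3.06 in D1D2KO samples, against 7.46 to 8.13 in WT samples. Xist, transcribed from the inactive X chromosome of female cells, read 10.57 to 10.78 in D1D2KO samples and 10.05 to 10.22 in WT samples. Signal for Y-linked genes was therefore low in every D1D2KO sample while Xist was high in all 12. The sex make-up of the cultures and the genotype cannot be told apart in any comparison of D1D2KO with WT.

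Hox signals lay in the lower and middle part of the array's range. Of the 37 genes, 4 (Hoxb13, Hoxc11, Hoxc12 and Hoxc13) had mean signals in quartile 1 (the lowest) of all genes, 14 in quartile 2, 19 in quartile 3 and 0 in quartile 4. The median spread within groups was 0.124 (log2, residual SD) for Hox genes and 0.118 for all genes. No detection calls were used here, so a low signal cannot be told from background. A low gene may therefore fail to show a change that it had.

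Differentiation lowered a subset of Hox genes in both genotypes, and the differences were under 2-fold for every member. In D1D2KO cells 12 of the 37 genes passed limma's test at an adjusted p under 0.05 over all genes, 2 higher and 10 lower. Over all genes 36.7% were called in this comparison, 15.4% higher and 21.2% lower, so the share called among Hox genes, 32.4%, was near the background. In WT cells 12 were called as well, 2 higher and 10 lower, beside 34.1% of all genes (14.7% higher and 19.4% lower). The median Hox difference was -0.13 in D1D2KO and -0.07 in WT, against 0.01 and 0.02 over all genes. The states did not overlap for 18 members in D1D2KO and 13 in WT, beside 48.1% and 43.9% of all genes. Of the uncalled members, 24 of 25 in each genotype had a 95% interval within 0.5 log2 of no change. The count in D1D2KO was 6 without D1D2KO undifferentiated replicate 3, and the count in WT was 7 without WT undifferentiated replicate 1.

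**Figure D1:**
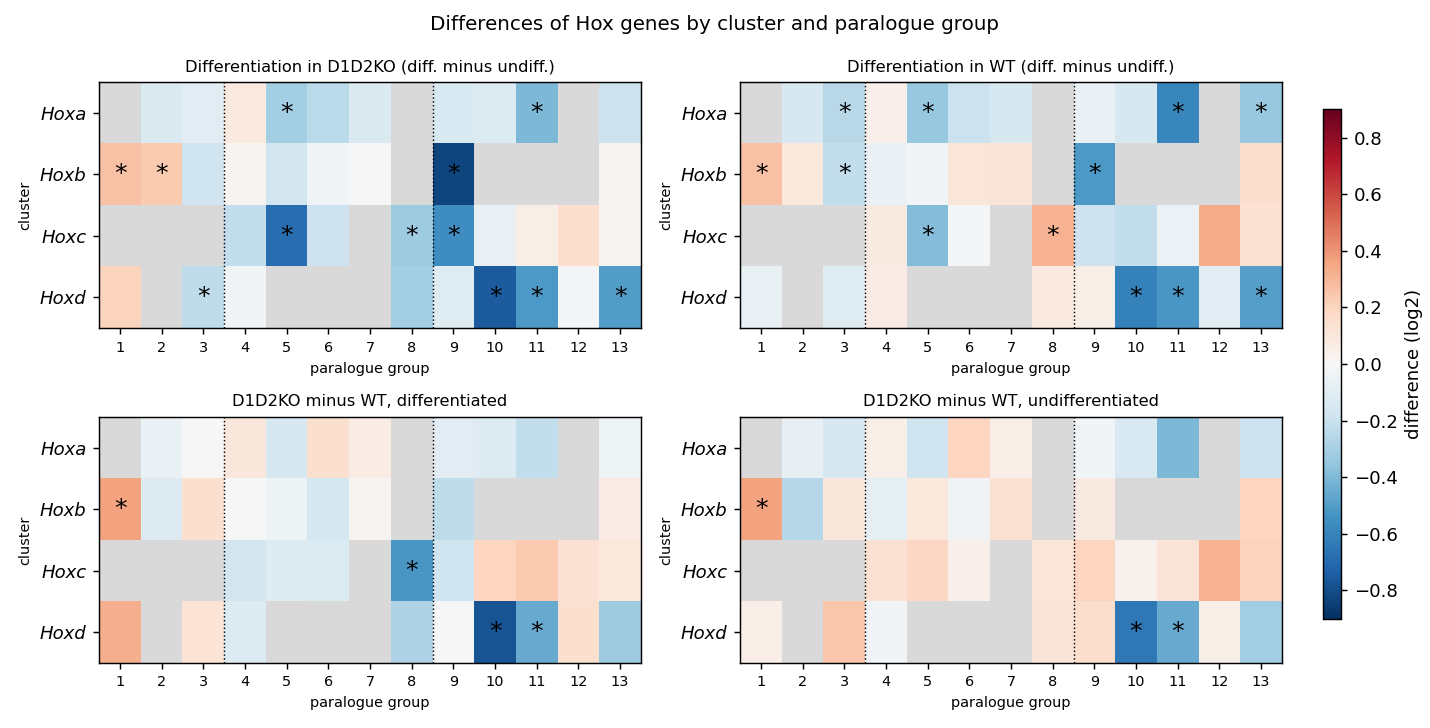
Difference (log2, colour scale) of each Hox gene by cluster (rows) and paralogue group (columns) in 4 comparisons, with a star where the adjusted p was under 0.05, grey where no member was measured and dotted lines between anterior, central and posterior groups. In both differentiation panels Hoxb9, Hoxd10, Hoxd11 and Hoxd13 are dark blue with a star, and Hoxd12 between them is near 0.

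In cluster D the posterior genes Hoxd13, Hoxd11 and Hoxd10 fell in both genotypes, and Hoxd12, between Hoxd13 and Hoxd11, was not called. These posterior HoxD genes pattern the distal limb and the genital tubercle. Their promoter windows are shown because neighbours called lower and an uncalled neighbour lie side by side here. Each window holds 300 bases around a RefSeq start, most of them before it, on GRCm38.p6, 5′ to 3′, with CG dinucleotides in capitals, and Hoxd11 has 2 annotated starts.
Hoxd13, chr2:74667975-74668274, plus strand: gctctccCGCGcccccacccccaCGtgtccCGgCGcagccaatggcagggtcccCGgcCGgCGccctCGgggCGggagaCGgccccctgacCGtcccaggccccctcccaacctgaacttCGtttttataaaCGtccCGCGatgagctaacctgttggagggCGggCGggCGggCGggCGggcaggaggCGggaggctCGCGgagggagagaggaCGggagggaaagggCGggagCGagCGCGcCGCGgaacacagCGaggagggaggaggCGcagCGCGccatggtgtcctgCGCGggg
Hoxd12, chr2:74674763-74675062, plus strand: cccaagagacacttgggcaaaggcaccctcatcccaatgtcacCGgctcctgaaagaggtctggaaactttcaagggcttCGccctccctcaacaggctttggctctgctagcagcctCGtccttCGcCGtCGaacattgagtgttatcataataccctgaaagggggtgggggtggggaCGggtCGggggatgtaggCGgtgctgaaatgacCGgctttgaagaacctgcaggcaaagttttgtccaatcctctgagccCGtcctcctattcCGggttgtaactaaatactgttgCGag
Hoxd11 upstream start, chr2:74679308-74679607, plus strand: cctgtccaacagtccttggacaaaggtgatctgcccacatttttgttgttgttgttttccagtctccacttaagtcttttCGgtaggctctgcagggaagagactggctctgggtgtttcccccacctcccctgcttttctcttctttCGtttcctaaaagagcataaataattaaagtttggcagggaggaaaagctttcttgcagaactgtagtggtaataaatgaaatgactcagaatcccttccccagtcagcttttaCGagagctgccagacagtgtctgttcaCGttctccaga
Hoxd11 downstream start, chr2:74682073-74682372, plus strand: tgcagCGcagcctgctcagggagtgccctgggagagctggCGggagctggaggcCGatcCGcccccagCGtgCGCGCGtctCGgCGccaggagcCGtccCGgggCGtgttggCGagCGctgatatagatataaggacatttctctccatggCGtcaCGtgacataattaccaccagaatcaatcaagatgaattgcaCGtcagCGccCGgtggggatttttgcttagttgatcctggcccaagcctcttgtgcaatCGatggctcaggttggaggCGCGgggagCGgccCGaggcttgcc
Hoxd10, chr2:74691641-74691940, plus strand: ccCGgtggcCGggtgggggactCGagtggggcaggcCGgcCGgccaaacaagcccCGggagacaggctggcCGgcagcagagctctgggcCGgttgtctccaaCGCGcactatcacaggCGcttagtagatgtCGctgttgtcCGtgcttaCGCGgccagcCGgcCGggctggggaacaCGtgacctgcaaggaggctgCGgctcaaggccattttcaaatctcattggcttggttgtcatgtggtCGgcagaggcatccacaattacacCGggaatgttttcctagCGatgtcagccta
The Hoxd13 window held 37 CG dinucleotides, more than 94.4% of the 32851 promoter windows in the table. The Hoxd12 window held 13 and the Hoxd10 window 22. The Hoxd11 windows held 4 at the upstream start and 25 at the downstream start, and the median over all windows was 7. The letters TATAAA, searched on both strands, were found in the Hoxd13 window and in 13.6% of all windows. The PBX-HOX composite TGATTNAT was found in the downstream Hoxd11 window and in 3.22% of all windows. CCAAT was in the Hoxd13, Hoxd12 and Hoxd10 windows and in 37.4% of all windows.  The window length and the table set these counts. A link between the windows and the differences was not tested.

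Hoxd13, the most 5′ gene of the cluster, shapes digits. It read 5.83, 5.73 and 5.91 in D1D2KO differentiated samples, against 6.35, 6.15 and 6.47 in D1D2KO undifferentiated samples. In WT it read 6.03, 6.27 and 6.11 in differentiated samples, against 6.85, 6.59 and 6.47 in undifferentiated samples. Every differentiated sample was below every undifferentiated sample of its genotype. The log2 difference was -0.50 ± 0.11 (SE) in each genotype, with an adjusted p of 0.00122 in D1D2KO and 0.00163 in WT.

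Hoxd11, which with its paralogues forms the forearm and kidney, read 6.07, 5.69 and 6.08 in D1D2KO differentiated samples, against 6.48, 6.54 and 6.38 in D1D2KO undifferentiated samples. In WT the differentiated samples read 6.55, 6.43 and 6.24, against 6.94, 7.01 and 6.83 in WT undifferentiated samples. The states did not overlap in either genotype. Its difference was -0.52 ± 0.11 in each genotype (adjusted p = 0.000966 in D1D2KO and 0.0011 in WT).

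Hoxd10, which acts in hindlimb innervation, showed the largest fall in the cluster. It read 5.56, 5.74 and 6.14 in D1D2KO differentiated samples, against 6.61, 6.56 and 6.52 in D1D2KO undifferentiated samples. The WT differentiated samples read 6.58, 6.88 and 6.32, against 7.38, 7.15 and 7.07 in WT undifferentiated samples. Signals again did not overlap between the states. The difference was -0.75 ± 0.14 in D1D2KO (adjusted p = 0.000456), 59.6% of the undifferentiated signal, and -0.61 ± 0.14 in WT (adjusted p = 0.00314). The RefSeq annotations of Hoxd11 and Hoxd10 overlap, and signal from shared sequence cannot be split between them here. The same limit holds for Hoxd3 with Hoxd4, Hoxb3 with Hoxb4, and Hoxa3 with Hoxa4, Hoxa5 and Hoxa6. The 6 differentiation calls for Hoxd10, Hoxd11 and Hoxd13 held in every alternative run, other than the 2-fold minimum.

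Hoxd12, the uncalled neighbour, read 5.10, 5.13 and 5.29 in D1D2KO differentiated samples, against 5.13, 5.22 and 5.19 in D1D2KO undifferentiated samples. Signals in WT differentiated samples were 5.09, 4.92 and 5.06, against 5.11, 5.27 and 4.99 in WT undifferentiated samples. The states overlapped in both genotypes, and the 95% interval of the difference was -0.20 to 0.18 in D1D2KO and -0.29 to 0.09 in WT. Its mean signal was in quartile 2 of all genes. Whether its differences are smaller than those of its neighbours was not tested.

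Farther along cluster D, toward its 3′ end, Hoxd3 in D1D2KO was the one gene called with differentiation. Hoxd9 differed by -0.11 in D1D2KO and 0.05 in WT, both uncalled. Hoxd8 differed by -0.31 in D1D2KO, the largest uncalled value there, and by 0.09 in WT. Hoxd3, an anterior gene of the neck vertebrae, read 5.76, 5.78 and 5.66 in D1D2KO differentiated samples, against 5.88, 6.02 and 5.99 in D1D2KO undifferentiated samples. It fell by 0.23 in D1D2KO (adjusted p = 0.033), and in WT its uncalled difference was -0.11. The Hoxd3 call was lost without D1D2KO undifferentiated replicate 2 or 3 or D1D2KO differentiated replicate 1 or 3, with adjusted p up to 0.122.

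**Figure D2:**
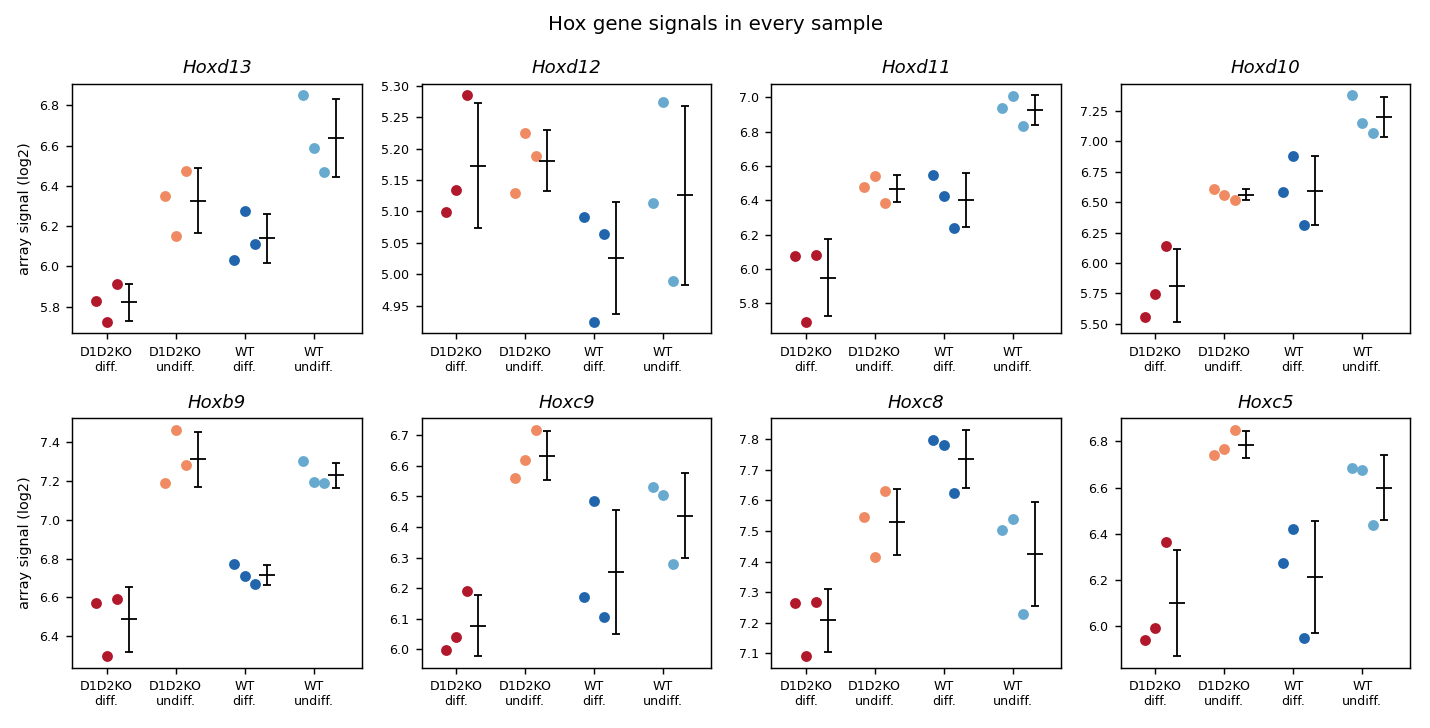
Array signal (log2, vertical axes differ between panels and do not start at 0) of 8 Hox genes in every sample, with points for the 3 samples of each group and bars for the group mean ± SD. Hoxd13, Hoxd11, Hoxd10 and Hoxb9 are lower in differentiated cells of both genotypes, Hoxd12 groups overlap, and Hoxc8 moves in opposite directions in the 2 genotypes.

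In cluster B a single posterior gene fell, and in D1D2KO it had the largest difference of any Hox gene. Hoxb9, which patterns the thoracic region, read 6.57, 6.29 and 6.59 in D1D2KO differentiated samples, against 7.19, 7.47 and 7.28 in D1D2KO undifferentiated samples. WT differentiated samples read 6.77, 6.71 and 6.67, against 7.30, 7.20 and 7.19 in WT undifferentiated samples. The 2 states were apart by more than the spread within either. The difference was -0.83 ± 0.10 in D1D2KO, 56.4% of the undifferentiated signal (adjusted p = 1.85e-06), and -0.51 ± 0.10 in WT (adjusted p = 0.00039). Both calls held in every alternative other than the 2-fold minimum.

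At the 3′ end of the same cluster the called genes that rose were anterior. Hoxb1, a gene of the hindbrain, read 6.08, 5.76 and 6.05 in D1D2KO differentiated samples, against 5.71, 5.73 and 5.65 in D1D2KO undifferentiated samples. In WT the differentiated samples read 5.57, 5.53 and 5.70, against 5.19, 5.33 and 5.48 in WT undifferentiated samples. It rose by 0.27 ± 0.10 in each genotype (adjusted p = 0.0443 in D1D2KO and 0.0463 in WT). Hoxb2, also a hindbrain gene, rose by 0.24 in D1D2KO (adjusted p = 0.0433), and in WT its difference was 0.10, uncalled. With the replicate number as a block, the Hoxb2 call in D1D2KO was lost (adjusted p = 0.0616), and Hoxa6 was called instead (-0.24, adjusted p = 0.0309). Hoxb3 fell by 0.22 in WT (adjusted p = 0.0257), and its uncalled difference in D1D2KO was -0.18. Hoxb7 had the smallest difference in D1D2KO, 0.00.

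The calls of Hoxb1, Hoxb2 and Hoxb3 were lost under several alternatives, in which each difference kept its sign. In D1D2KO, Hoxb1 was lost with array weights and without undifferentiated replicate 1, 2 or 3 or differentiated replicate 1 or 3 (adjusted p up to 0.203), with differences of 0.14 to 0.37 over all alternatives. Hoxb2 was lost there in a fit of the 2 groups alone, with array weights, and without undifferentiated replicate 1 or 3 or differentiated replicate 1 or 3 (up to 0.191), with differences of 0.16 to 0.28. In WT, Hoxb1 was lost under quantile normalization, in a fit of the 2 groups alone, and without undifferentiated replicate 1 or 2 or differentiated replicate 1 or 3 (up to 0.207), with differences of 0.20 to 0.34. Hoxb3 was lost in a fit of the 2 groups alone and without undifferentiated replicate 1 or 2 or differentiated replicate 3 (up to 0.0892), and its difference stayed between -0.24 and -0.20.

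In cluster C the genes that changed were Hoxc5, Hoxc8 and Hoxc9. Hoxc5, which patterns the neck, read 5.94, 5.99 and 6.37 in D1D2KO differentiated samples, against 6.74, 6.77 and 6.85 in D1D2KO undifferentiated samples. The WT differentiated samples read 6.27, 6.42 and 5.95, against 6.68, 6.68 and 6.44 in WT undifferentiated samples. Hoxc5 fell by 0.69 ± 0.13 in D1D2KO (adjusted p = 0.000269) and by 0.39 ± 0.13 in WT (adjusted p = 0.0239). The WT call was lost without WT differentiated replicate 3 and without WT undifferentiated replicate 1 or 2 (adjusted p up to 0.141).

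Hoxc9, a gene of the thoracic trunk that is commonly used to mark white fat, read 5.999, 6.04 and 6.19 in D1D2KO differentiated samples, against 6.56, 6.62 and 6.72 in D1D2KO undifferentiated samples. Signals in WT differentiated samples were 6.17, 6.48 and 6.11, against 6.53, 6.50 and 6.28 in WT undifferentiated samples. It fell by 0.56 ± 0.10 in D1D2KO (adjusted p = 0.000358), with no overlap. In WT its difference was -0.18 and was not called. The difference between the genotypes' responses was -0.37 and was not called.

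Hoxc8 was the single Hox gene whose response differed between the genotypes. Hoxc8 patterns the thoracic trunk, and in mouse white fat progenitors it is known as a repressor of the brown fat programme. It read 7.27, 7.09 and 7.27 in D1D2KO differentiated samples, against 7.55, 7.42 and 7.63 in D1D2KO undifferentiated samples. WT differentiated samples read 7.80, 7.78 and 7.62, against 7.50, 7.54 and 7.23 in WT undifferentiated samples. Every differentiated D1D2KO sample was below, and every differentiated WT sample above, the undifferentiated samples of its genotype. Hoxc8 fell by 0.32 ± 0.10 in D1D2KO (adjusted p = 0.0146) and rose by 0.31 ± 0.10 in WT (adjusted p = 0.0202).

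The D1D2KO response of Hoxc8 minus the WT response was -0.63 ± 0.14 (adjusted p = 0.0309). It was the only called member of 37, beside 1.46% of all genes called for this difference (0.747% higher and 0.712% lower), and the only one with a difference in response of at least 0.5 log2, beside 2.85% of all genes. The call was lost in 8 of 12 fits that left out 1 sample, with adjusted p up to 0.0962. These were the fits without replicate 1 or 3 of WT undifferentiated, 1 or 2 of WT differentiated, 1 or 3 of D1D2KO undifferentiated, and 1 or 2 of D1D2KO differentiated cells. The D1D2KO call was lost without undifferentiated replicate 3 or differentiated replicate 2 (adjusted p up to 0.0757), and the WT call with array weights and without undifferentiated replicate 3 or differentiated replicate 1 or 2 (up to 0.114). The direction was the same in each fit. Of the uncalled members, Hoxd8 (-0.39) and Hoxc9 (-0.37) had the largest differences in response and Hoxb1 the smallest (0.00), and 26 of 36 had a 95% interval within 0.5 log2 of no difference.

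The most 5′ HoxC genes had low signals. Hoxc11, Hoxc12 and Hoxc13 read 3.47 to 4.93 over the 12 samples and were called in no comparison. Hoxc12 had the largest uncalled difference in WT, 0.33. Hoxc10 differed by -0.22 in WT and became called there with the replicate number as a block (adjusted p = 0.0359). Hoxc6 had the smallest difference in WT, -0.02.

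In cluster A the called genes were Hoxa11, Hoxa13, Hoxa5 and Hoxa3, and all fell. Hoxa11, which acts in the forearm and the uterus, read 5.14, 4.65 and 4.62 in D1D2KO differentiated samples, against 5.12, 5.35 and 5.15 in D1D2KO undifferentiated samples. In WT the differentiated samples read 5.24, 4.78 and 5.05, against 5.81, 5.62 and 5.41 in WT undifferentiated samples. The states overlapped in D1D2KO, where replicate 1 of the differentiated samples was high, and did not overlap in WT. The difference was -0.40 ± 0.14 in D1D2KO (adjusted p = 0.0362) and -0.59 ± 0.14 in WT (adjusted p = 0.00383). The D1D2KO call was lost without undifferentiated replicate 2 or 3 or differentiated replicate 2 or 3 (adjusted p up to 0.157), and the WT call held in every alternative other than the 2-fold minimum.

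Hoxa13, which is needed for the digits, read 5.04, 5.22 and 4.95 in WT differentiated samples, against 5.46, 5.38 and 5.40 in WT undifferentiated samples. It fell by 0.34 ± 0.09 in WT (adjusted p = 0.0091), and its uncalled difference in D1D2KO was -0.19. Hoxa5, which acts in lung development, fell by 0.30 ± 0.11 in D1D2KO (adjusted p = 0.0407) and by 0.34 ± 0.11 in WT (adjusted p = 0.0246). Hoxa5 was lost in D1D2KO under quantile normalization, in a fit of the 2 groups alone, and without undifferentiated replicate 2 or 3 or differentiated replicate 1 or 2 (adjusted p up to 0.21). In WT it was lost under quantile normalization and without undifferentiated replicate 1 or 3 or differentiated replicate 1 (up to 0.116). Hoxa3, a gene of the thymus and parathyroid, fell by 0.25 in WT (adjusted p = 0.0443), and the call was lost in a fit of the 2 groups alone, with trended and robust variance estimates, and when any 1 of the WT samples apart from undifferentiated replicate 3 was left out (up to 0.202). All other cluster A genes were uncalled. In each genotype 9 of 10 differences were below 0, beside 9734 (D1D2KO) and 9421 (WT) of all 19938 genes.

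Set against position, the falls of 0.5 log2 or more were nearly all posterior. In D1D2KO 5 of 16 posterior genes (31.2%), 1 of 14 central genes and 0 of 7 anterior genes differed by at least 0.5, beside 19% of all genes. In WT 4 of 16 posterior genes (25%) did, and 0 central and 0 anterior genes, beside 15.6% of all genes. The posterior share called was 37.5% in each genotype, 6 genes, near the 36.7% (D1D2KO) and 34.1% (WT) of all genes. All 6 were lower, beside 21.2% and 19.4% lower over all genes. Of anterior genes, 2 rose and 1 fell in D1D2KO, and 1 rose and 2 fell in WT, 42.9% called in each. Of central genes, 3 fell in D1D2KO, and in WT 2 fell and 1, Hoxc8, rose, 21.4% called in each. Positions were compared by description, with no test of the difference between them. Signal level differed with position: every anterior gene but Hoxb3 had a mean signal at or below the median of all genes. In D1D2KO all 6 differences of at least 0.5 lay among the 19 Hox genes above that median, and 0 among the 18 others. In WT 3 of 4 lay above it and 1, Hoxa11, did not. The part of signal level in this pattern was not tested.

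The medians of the 3 positions were closer together than these counts. In D1D2KO they were -0.11 for anterior, -0.18 for central and -0.13 for posterior genes, and in WT -0.11, 0.01 and -0.16. The posterior genes split within themselves: members above the median signal of all genes had a median of -0.52 in D1D2KO and -0.50 in WT. By cluster, the D1D2KO medians were -0.14 for A, 0.00 for B, -0.19 for C and -0.23 for D, and the WT medians were -0.17, 0.10, -0.02 and -0.10. Without D1D2KO differentiated replicate 2 the anterior median in D1D2KO was 0.011, and without D1D2KO differentiated replicate 3 that of cluster A was -0.23. Without WT undifferentiated replicate 3 or WT differentiated replicate 1 the WT median of cluster B was 0.035 or 0.021.

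**Figure D3:**
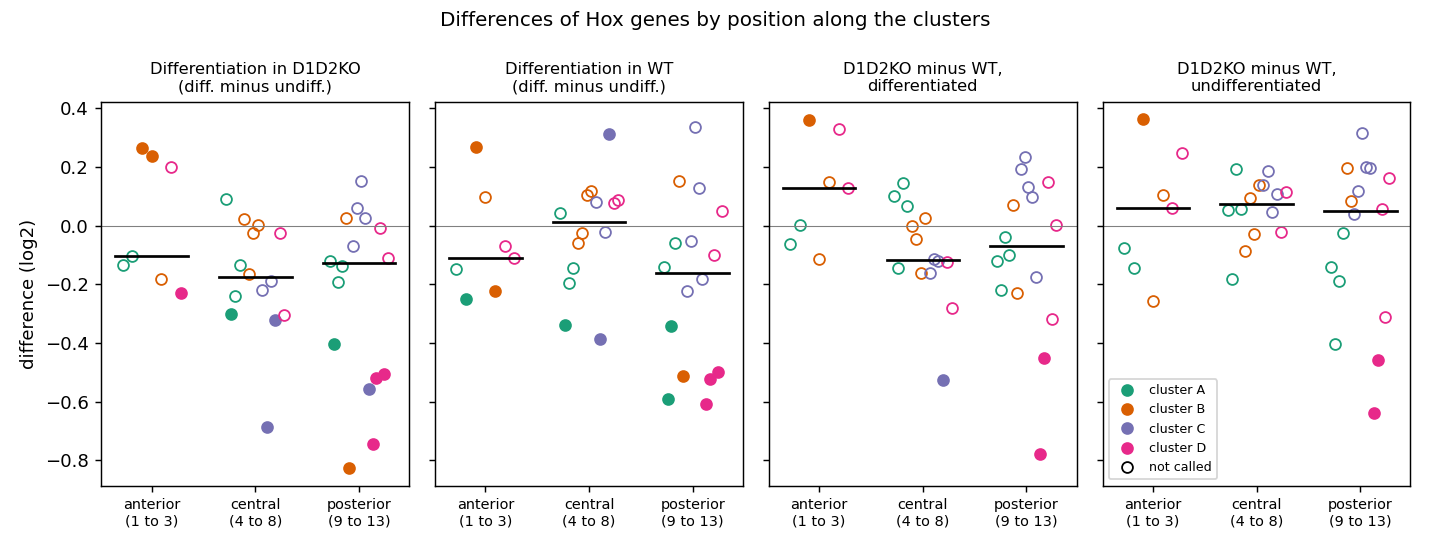
Difference (log2) of each Hox gene in 4 comparisons, grouped by position along the clusters, with colour for the cluster, filled points for an adjusted p under 0.05 and black lines for medians. In the 2 differentiation panels the points at -0.5 and below are posterior, apart from Hoxc5 in D1D2KO.

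Many of the same Hox genes were called in the 2 genotypes, which share no samples in these comparisons. The calls of 9 genes were common to both, 75% of each genotype's 12, and 7 of these fell in both: Hoxa5, Hoxa11, Hoxb9, Hoxc5, Hoxd10, Hoxd11 and Hoxd13. Hoxb1 rose in both, and Hoxc8 was called in opposite directions. The share of all genes called in both genotypes was not computed, so the 75% has no background beside it. Hoxb2, Hoxc9 and Hoxd3 were called in D1D2KO and not in WT, and Hoxa3, Hoxa13 and Hoxb3 in WT and not in D1D2KO. None of these 6 had a called difference in response. As a description over the 37 genes, Pearson's r between the responses was 0.73 and Spearman's rho was 0.65, against 0.934 and 0.816 over all genes. Genes are not independent replicates, and the cells of both genotypes went through the same protocol.

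**Figure D4:**
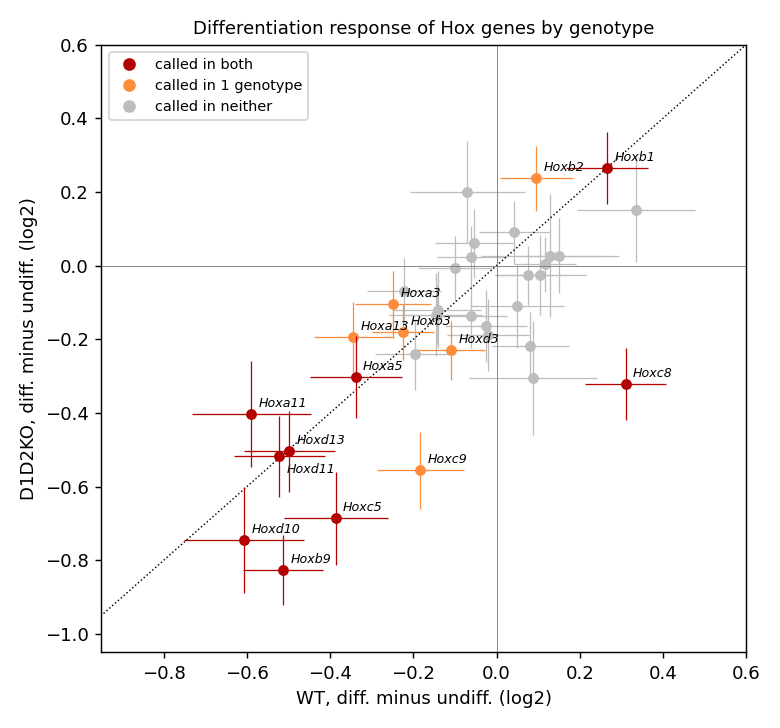
Differentiation response (log2) of the 37 Hox genes in D1D2KO (vertical) against WT (horizontal), with bars for standard errors, colour for the number of genotypes in which the gene was called and a dotted line of equal response. Most called genes lie at the lower left near the line, and Hoxc8 lies at the lower right.

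Other markers moved with differentiation in the same samples. The mean signal of the 6 smooth muscle markers was 8.32 to 8.41 in D1D2KO differentiated and 9.18 to 9.50 in D1D2KO undifferentiated samples. That of the 5 neural markers was 5.51 to 5.58 in D1D2KO differentiated and 6.88 to 6.96 in D1D2KO undifferentiated samples. In WT the neural markers averaged 5.42 to 5.78 in differentiated and 6.71 to 6.81 in undifferentiated samples, and the fibroblast markers 10.55 to 10.60 in differentiated and 11.10 to 11.14 in undifferentiated samples. The smooth muscle markers averaged 10.25 to 10.44 in WT differentiated and 10.54 to 10.70 in WT undifferentiated samples. They fell at 6 of 6 genes in D1D2KO and at 3 of 6 in WT. The 4 epithelial markers fell at 1 gene in each genotype, and the 5 endothelial markers at 2. The part of these cell types in the Hox differences was not tested.

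Between the genotypes the share of Hox genes called was 10.8% in differentiated and 8.11% in undifferentiated cells, against 13.7% and 8.02% of all genes. In differentiated cells 4 of 37 were called, 1 higher and 3 lower in D1D2KO, beside 6.25% higher and 7.42% lower of all genes. In undifferentiated cells 3 were called, 1 higher and 2 lower, beside 4.4% higher and 3.62% lower of all genes. Hoxb1, Hoxd10 and Hoxd11 were called in both states, and these 2 comparisons share no samples. Whether the 2 states of a genotype came from the same embryos or cultures is not given, so the states may not be independent. The share of all genes called in both states was not computed. The genotypes did not overlap for 10 members in differentiated and 12 in undifferentiated cells, beside 30.9% and 39.3% of all genes. A difference of at least 0.5 log2 was seen for 2 members in differentiated cells (3.16% of all genes) and 1 in undifferentiated cells (1.71%). In 29 of 33 uncalled genes in differentiated cells and 30 of 34 in undifferentiated cells the 95% interval lay within 0.5 log2 of no difference. The median Hox difference was -0.05 in differentiated and 0.06 in undifferentiated cells, against 0.03 and 0.02 over all genes.

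Hoxd10 and Hoxd11 were lower in D1D2KO in both states. From the signals given above, every D1D2KO sample was below every WT sample of the same state for both genes. Hoxd10 differed by -0.78 ± 0.14 in differentiated cells (adjusted p = 0.00228), 58.3% of the WT signal, and by -0.64 ± 0.14 in undifferentiated cells (adjusted p = 0.0158). Hoxd11 differed by -0.45 ± 0.11 in differentiated cells (adjusted p = 0.0132) and by -0.46 ± 0.11 in undifferentiated cells (adjusted p = 0.0209). Their neighbour Hoxd13 differed by -0.32 in differentiated cells (adjusted p = 0.0614) and by -0.31 in undifferentiated cells (adjusted p = 0.0836), and was not called. In differentiated cells Hoxd13 became called with array centring, among genes above the median signal, and with array weights (adjusted p down to 0.0363). Hoxd12 differed by 0.15 in differentiated and 0.06 in undifferentiated cells, also uncalled. Hoxd9 differed by 0.00 in differentiated and 0.16 in undifferentiated cells, also uncalled.

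The undifferentiated calls were lost in several fits that left out 1 sample, while the differences stayed between -0.70 and -0.55 for Hoxd10 and between -0.50 and -0.41 for Hoxd11 over all alternatives. Without WT undifferentiated replicate 1 or 2 or D1D2KO undifferentiated replicate 3, 0 Hox genes were called in undifferentiated cells, and without D1D2KO undifferentiated replicate 1 only Hoxd10 was, while 8 of 37 had an unadjusted p under 0.05 with all samples. These 4 fits called 339 to 588 genes over the array, against 1600 with all samples. The adjusted p of Hoxd10 reached 0.077 and that of Hoxd11 0.104. In differentiated cells Hoxd10 held in every alternative other than the 2-fold minimum, and Hoxd11 was lost without D1D2KO differentiated replicate 2 or in a fit of the 2 groups alone (adjusted p up to 0.0574).

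Hoxb1 was higher in D1D2KO in both states, by 0.36 ± 0.10 in each (adjusted p = 0.0251 in differentiated and 0.0364 in undifferentiated cells). In differentiated cells it was lost in a fit of the 2 groups alone, with array weights, and without replicate 1 or 2 of WT or 1 or 3 of D1D2KO (adjusted p up to 0.18). In undifferentiated cells it was lost under centring and quantile normalization and when any 1 sample apart from WT replicate 3 was left out (up to 0.142). Hoxc8 was lower in D1D2KO differentiated than in WT differentiated cells, by -0.53 ± 0.10 (adjusted p = 0.00234), a call that held in every alternative other than the 2-fold minimum. In undifferentiated cells its difference was 0.11, with overlapping groups.

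No cluster A gene was called between the genotypes by limma, and at an unadjusted p under 0.05 there were 0 in differentiated and 1 in undifferentiated cells. The largest uncalled difference in undifferentiated cells was that of Hoxa11, -0.41, which was called with the replicate number as a block (adjusted p = 0.0392), and next was Hoxc12, 0.32. In differentiated cells Hoxd1 had the largest, 0.33, and Hoxa3 the smallest, 0.00. Hoxd4 had the smallest in undifferentiated cells, -0.02. All 9 HoxC genes had a difference above 0 in undifferentiated cells, from 0.04 to 0.32, and none was called. Over all genes 10637 of 19938 were above 0 there. Array medians were 5.67 in D1D2KO undifferentiated samples and 5.62 to 5.64 in WT undifferentiated samples. The median by position was 0.13 for anterior, -0.12 for central and -0.07 for posterior genes in differentiated cells, and 0.06, 0.07 and 0.05 in undifferentiated cells. Without WT differentiated replicate 2 the central median was -0.012, and without WT undifferentiated replicate 2 the anterior median in undifferentiated cells was -0.019.

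Smooth muscle markers differed between the genotypes in the same direction as Hoxd10 and Hoxd11. All 6 were lower in D1D2KO in each state. Their mean signal was 8.32 to 8.41 in D1D2KO differentiated and 10.25 to 10.44 in WT differentiated samples, and 9.18 to 9.50 in D1D2KO undifferentiated and 10.54 to 10.70 in WT undifferentiated samples. Adipocyte markers were higher in D1D2KO at 7 of 10 genes in differentiated cells, and fibroblast markers lower at 5 of 10. The part of these cells in the Hox differences was not tested.

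Pbx3, Meis1, Meis2 and Pknox2, genes of HOX cofactors, fell with differentiation in both genotypes. Of 8 PBX, MEIS and PKNOX genes measured, 5 fell and 1 rose with differentiation in D1D2KO, and 4 fell and 0 rose in WT. Lower calls were 62.5% of the list in D1D2KO and 50% in WT, beside 21.2% and 19.4% of all genes. Their median difference was -0.44 in D1D2KO and -0.36 in WT. Pbx3, a direct DNA-binding partner of HOX proteins, read 6.50, 6.62 and 7.04 in D1D2KO differentiated samples, against 7.89, 7.76 and 7.85 in D1D2KO undifferentiated samples. In WT it read 7.12, 7.48 and 6.77 in differentiated samples, against 7.94, 7.86 and 7.82 in undifferentiated samples. All differentiated samples were lower, and Pbx3 fell by 1.11 ± 0.15 in D1D2KO (adjusted p = 1.08e-05) and by 0.75 ± 0.15 in WT (adjusted p = 0.000742).

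Meis1 and Meis2 form complexes with PBX and with posterior HOX proteins. Meis2 read 7.53, 7.52 and 7.46 in D1D2KO differentiated samples, against 8.45, 8.48 and 8.36 in D1D2KO undifferentiated samples. It fell by 0.93 in D1D2KO and by 0.88 in WT, and Meis1 fell by 0.79 in D1D2KO and by 0.62 in WT. Pknox2, a relative of the MEIS genes, fell by 0.64 in D1D2KO and by 0.58 in WT. Between the genotypes 1 of 8 cofactor genes was higher and 3 lower in D1D2KO differentiated cells, 50% called beside 13.7% of all genes. In undifferentiated cells 0 were higher and 2 lower, 25% beside 8.02%. Meis1 was lower in differentiated cells, by -0.42 (adjusted p = 0.00549), and differed by -0.24, uncalled, in undifferentiated cells. Meis2 (-0.35 and -0.31) and Pknox2 (-0.47 and -0.41) were lower in differentiated and undifferentiated cells. Pbx4 was higher in differentiated cells (0.29). Each call of Meis2, Pknox2 and Pbx4 between the genotypes was lost under some alternatives. The differentiation calls of Pbx3, Meis1, Meis2 and Pknox2 and the Meis1 genotype call held in every alternative run for them. The 2-fold minimum was not run for these genes, and of their differences only that of Pbx3 in D1D2KO (-1.11) exceeded 2-fold.

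**Figure D5:**
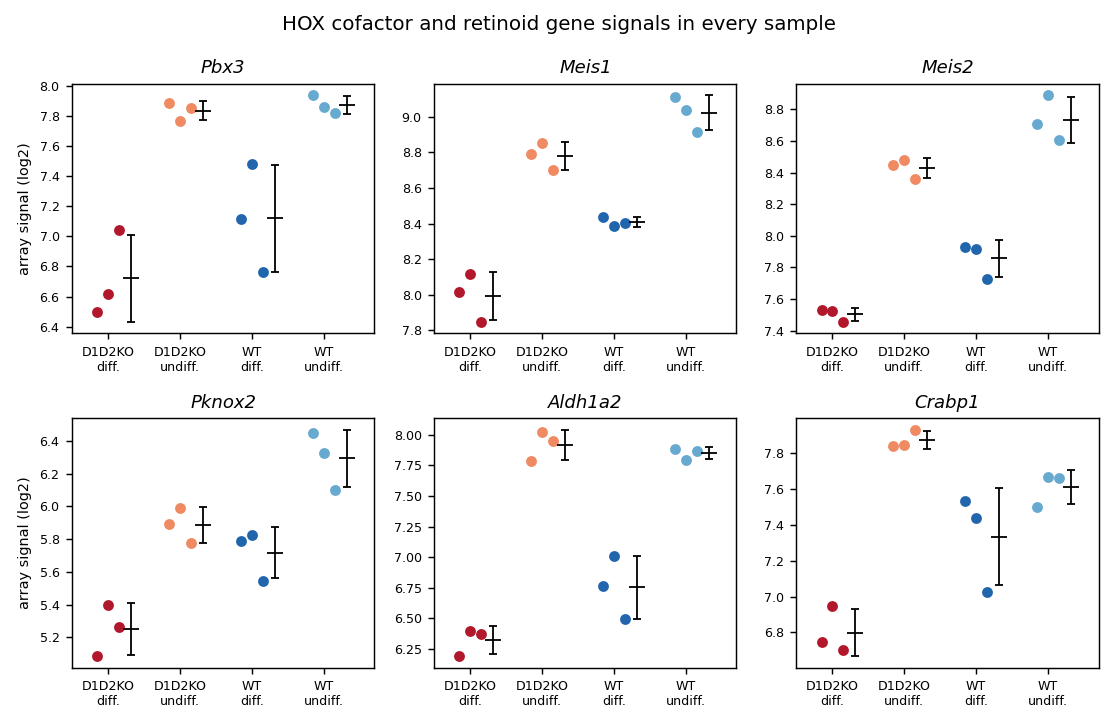
Array signal (log2, vertical axes differ between panels and do not start at 0) of 4 HOX cofactor genes and 2 retinoid genes in every sample, with points for the 3 samples of each group and bars for the group mean ± SD. Pbx3, Meis1, Meis2, Pknox2 and Aldh1a2 are lower in differentiated than in undifferentiated samples of both genotypes without overlap.

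Of 28 Polycomb genes measured, 3 rose and 6 fell with differentiation in D1D2KO, and 3 rose and 3 fell in WT. The share called was 32.1% in D1D2KO and 21.4% in WT, near and below the 36.7% and 34.1% of all genes. Jarid2, which recruits Polycomb repressive complex PRC2, rose by 1.20 in D1D2KO and by 0.88 in WT. Pcgf5, a subunit of a variant PRC1, rose by 0.97 in D1D2KO and by 0.61 in WT. Suz12, a PRC2 core subunit, rose by 0.37 in D1D2KO (adjusted p = 0.00188), and in WT its difference was 0.16, uncalled. Scmh1, a PRC1-associated protein, fell by 0.55 in D1D2KO and by 0.53 in WT. Between the genotypes 0 rose and 2 fell in each state, 7.14% of the list, beside 13.7% (differentiated) and 8.02% (undifferentiated) of all genes. Eed was called in both, at -0.44 in differentiated and -0.46 in undifferentiated cells. These calls were lost under 3 and 5 of 15 alternatives, among them the mean of its probe sets, with differences up to -0.073 and -0.090.

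Of 12 genes of Trithorax complexes and their partners, 2 rose and 6 fell in D1D2KO, and 1 rose and 3 fell in WT. The share called was 66.7% in D1D2KO and 33.3% in WT, beside 36.7% and 34.1% of all genes, among which falls also outnumbered rises. Kmt2a, the methyltransferase that maintains Hox transcription, fell by 0.57 in D1D2KO (adjusted p = 0.000186). In WT it fell by 0.33 (adjusted p = 0.0176), a call lost without WT undifferentiated replicate 1 or WT differentiated replicate 3. Psip1, a chromatin partner of KMT2A, fell by 0.72 in D1D2KO and by 0.53 in WT, and Kmt2c by 0.42 in D1D2KO and by 0.40 in WT. Kdm6b, which removes the Polycomb methyl mark, rose by 0.52 in D1D2KO and by 0.49 in WT. No Trithorax gene was called between the genotypes by limma, and at an unadjusted p under 0.05 there were 3 in differentiated and 1 in undifferentiated cells.

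Retinoic acid sets the anterior border of Hox expression in the embryo, and 3′ Hox genes respond to it most readily. Of 18 retinoid genes, 4 rose and 8 fell in D1D2KO, and 2 rose and 7 fell in WT. The share called was 66.7% in D1D2KO and 50% in WT, beside 36.7% and 34.1% of all genes. Aldh1a2, a retinoic acid-synthesising enzyme, read 6.19, 6.40 and 6.37 in D1D2KO differentiated samples, against 7.78, 8.02 and 7.95 in D1D2KO undifferentiated samples. It fell by 1.60 ± 0.11 in D1D2KO (adjusted p = 4.11e-09) and by 1.10 ± 0.11 in WT (adjusted p = 6.39e-07). Rdh10, the preceding enzyme, fell by 0.69 in D1D2KO and by 0.46 in WT, and the cellular retinoic acid-binding protein gene Crabp2 fell by 0.87 in D1D2KO and by 0.63 in WT. The retinoic acid receptor gene Rarb fell by 0.27 in D1D2KO and by 0.56 in WT. Rbp4, the retinol carrier that adipocytes secrete, rose by 4.25 in D1D2KO and by 3.51 in WT. Aldh1a1 was lower in D1D2KO in both states, by -0.76 in differentiated and -0.74 in undifferentiated cells.

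Other transcription factors mark body position outside the clusters. Of 31 such factors of limb and trunk mesenchyme, 0 rose and 12 fell in D1D2KO, and 1 rose and 10 fell in WT. The share called was 38.7% in D1D2KO and 35.5% in WT, near the 36.7% and 34.1% of all genes, and the share lower was 38.7% in D1D2KO and 32.3% in WT, beside 21.2% and 19.4%. Prrx1, a limb bud mesenchyme factor, fell by 0.95 in D1D2KO and by 0.42 in WT. Osr1, a factor of kidney and limb mesenchyme, fell by 0.82 in D1D2KO and by 0.61 in WT. Tbx15, which differs between fat depots, fell by 0.67 in D1D2KO and by 0.48 in WT. Tcf21, a factor of visceral mesenchyme, was lower in D1D2KO undifferentiated than in WT undifferentiated cells, by -0.74 (adjusted p = 7.54e-05). Of 12 Cdx, ParaHox and related genes, 2 rose and 1 fell in D1D2KO, and 0 rose and 1 fell in WT, 25% and 8.33% called. The one that fell in both was Gdf11 (-0.67 in D1D2KO and -0.57 in WT), a ligand that sets the trunk-to-tail transition of Hox expression.

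MicroRNA genes lie within the Hox clusters, and some of their products repress Hox mRNAs. Their mature sequences are shown because the seed groups them: bases 2 to 8, in capitals, are shared by miR-196a and miR-196b and by miR-10a and miR-10b. The sequences are RefSeq's, with positions on GRCm38.p6, and miR-196a is shown at its cluster B gene.
miR-196a-5p, chr11:96265187-96265208, plus strand: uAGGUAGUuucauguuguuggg
miR-196b-5p, chr6:52230129-52230150, minus strand: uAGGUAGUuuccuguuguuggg
miR-10a-5p, chr11:96317186-96317208, plus strand: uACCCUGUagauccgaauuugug
miR-10b-5p, chr2:74726074-74726096, plus strand: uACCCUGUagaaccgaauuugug
The probe sets at these loci do not measure a mature arm. Of 10 cluster RNAs with a probe set, 0 rose and 1 fell in D1D2KO and none was called in WT. Mir196a-1, upstream of Hoxb9, read 5.05, 4.93 and 5.48 in D1D2KO differentiated samples, against 5.73, 5.85 and 5.85 in D1D2KO undifferentiated samples. It differed by -0.66 ± 0.14 (adjusted p = 0.000984), beside -0.83 for Hoxb9, and by -0.33 in WT, uncalled. miR-196a is known to repress Hoxc8. Mir10b, of cluster D, was lower in D1D2KO undifferentiated than in WT undifferentiated cells, by -0.55 (adjusted p = 0.0184). Its signals were 2.36, 2.55 and 2.44 in D1D2KO undifferentiated samples, against 3.13, 3.21 and 2.66 in WT undifferentiated samples, near the bottom of the array's range. The Mir10b call was lost without WT undifferentiated replicate 1 or 2 or D1D2KO undifferentiated replicate 1 or 3.

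Of 13 genes that flank the clusters, 3 rose and 3 fell with differentiation in each genotype. This was 46.2% called, beside 36.7% (D1D2KO) and 34.1% (WT) of all genes, and whether the flanking genes differ from the Hox genes was not tested. Hibadh, an enzyme of valine breakdown beside cluster A, rose by 1.94 in D1D2KO and by 1.29 in WT. With the mean of its probe sets it rose by 1.13 in D1D2KO and by 0.55 in WT. Mtx2, a mitochondrial import protein beside cluster D, rose by 0.60 in D1D2KO and by 0.40 in WT. Cbx5, a heterochromatin protein gene near cluster C, fell by 0.42 in D1D2KO (by 0.28 without D1D2KO differentiated replicate 3) and by 0.48 in WT, and Skap2, beside cluster A, fell by 0.38 in each genotype.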

How the data were processed

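The deposited table held 35556 probe sets as log2 array signals made by the authors. The base and a normalization between arrays were inferred from the values (1.15 to 14.17, column medians 5.61 to 5.69), and how the authors made them is not given in the sources used here. Platform annotation named 21789 probe sets with 1 gene, 1621 with several and 12146 with none listed, and for 999 genes with several probe sets the brightest was kept. All 12 samples were fitted with 4 group means in limma 3.58.1 (R 4.3.3), with 5 two-sided contrasts and Benjamini-Hochberg adjustment over 19938 genes at 0.05, and the code was tested on simulated data. With 3 arrays a group, their number limits the precision. Sample titles gave the groups and the replicate numbers.

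Members and gene lists were chosen with earlier results of these data known. Named genes were Dgat1 and Dgat2, every called Hox gene, the 2 largest uncalled and the smallest Hox differences of each contrast, and up to 4 called genes per direction, contrast and list. Sex-linked genes were added with their values known. Alternatives changed the scaling (array centring, quantile normalization), the probe sets (above the median signal, averaged per gene, or each tested), the fit (array weights, eBayes with trend and robustness, the 2 groups alone, a replicate block) and the call (a 2-fold minimum). Others were each sample left out in turn, and for the medians another split of paralogue groups. Deviations of samples with the same replicate number correlated at 0.101 to 0.176 in all pairs only for D1D2KO differentiation, where the number was taken as pairing from the data. Even there the main fit used the group means without pairing, and the replicate block was an alternative. Genome positions are those of the RefSeq promoter and miRNA tables on GRCm38.p6, in which 21 of the 37 Hox genes had a promoter window. Figures were drawn with matplotlib.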

Additional observations from a re-analysis of the deposited data

Results flagged for a closer look

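Hox genes, Dgat2 and the gene lists other than the cell type markers were searched for a response that differed between the genotypes. By the interaction test in limma, it differed for Hoxc8 and for 4 of the searched genes outside the Hox clusters. Over all genes 1.46% were called for this difference. Among the markers, which were not searched, 5 of 6 for smooth muscle, 3 of 10 for adipocytes and 1 of 10 for fibroblasts were called. For Hoxc8 the D1D2KO response minus the WT response was -0.63 ± 0.14 (SE; adjusted p = 0.0309), from -0.32 in D1D2KO and 0.31 in WT. Dgat2, a targeted gene, rose by 3.07 in D1D2KO and by 4.27 in WT, a difference of -1.20 (adjusted p = 0.00271). Crabp1, a retinoic acid-binding protein gene, differed by -1.07 in D1D2KO and -0.28 in WT, a difference of -0.79 (adjusted p = 0.0189) that was lost without WT undifferentiated replicate 1, WT differentiated replicate 2, D1D2KO undifferentiated replicate 3 or D1D2KO differentiated replicate 1. Rbp4 rose by 4.25 in D1D2KO and by 3.51 in WT, a difference of 0.74 (adjusted p = 0.0161) that was lost with the replicate number as a block and without WT undifferentiated replicate 2 or D1D2KO undifferentiated replicate 1. Hibadh rose by 1.94 in D1D2KO and by 1.29 in WT, a difference of 0.65 (adjusted p = 0.00839) that was lost with the mean of its probe sets (adjusted p = 0.121). Groups of 3 are too small for a check of single outlying samples.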

How the results depend on the processing

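Of 32 calls of a Hox gene in a comparison, 14 held under every alternative without a fold minimum, 18 were lost when some single sample was left out, and no direction reversed. A 2-fold minimum left 0 Hox calls in every comparison. With array weights, 19 genes were called for differentiation in D1D2KO (0 higher, 19 lower) and 8 between undifferentiated genotypes (3 higher, 5 lower), and the cluster B median between differentiated genotypes was -0.056. A fit of the 2 groups alone called 2 genes between differentiated genotypes, and it does not apply to the difference in response. Leaving out 1 sample gave 6 to 11 calls for differentiation in D1D2KO, 7 to 13 in WT, 3 to 4 between differentiated and 0 to 4 between undifferentiated genotypes, and 0 to 1 for the difference in response. It gave medians of -0.16 to 0.011 for anterior genes and -0.23 to -0.12 for cluster A (differentiation in D1D2KO), 0.021 to 0.081 for cluster B (differentiation in WT), -0.13 to -0.012 for central genes (differentiated genotypes) and -0.019 to 0.088 for anterior genes (undifferentiated genotypes). Quantile normalization made the last of these -0.034.

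The only anterior member above the median signal of all genes was Hoxb3, so the anterior values given here are its own differences. Among members above that signal, the D1D2KO differentiation medians were -0.18 for anterior and -0.52 for posterior genes, and -0.16, -0.32 and -0.50 for clusters B, C and D. Those of WT differentiation were -0.22 for anterior and -0.50 for posterior genes, -0.061 for cluster B and -0.50 for cluster D. Between genotypes they were -0.23 for posterior genes and -0.32 for cluster D in differentiated cells, and -0.14 and -0.31 in undifferentiated cells. With paralogue groups 1 to 8 taken as anterior, the anterior median was -0.026 for differentiation in WT and -0.045 between differentiated genotypes. The cause of these changes was not tested.

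With the replicate block, 12 Hox genes were called for differentiation in D1D2KO (11 of the same), 12 in WT (11 of the same), 4 and 4 between differentiated and undifferentiated genotypes, and 1 for the difference in response. Besides the calls already given, Hoxa3 in WT was lost (adjusted p = 0.0504). The same-number correlations were -0.0125 to 0.129 in WT differentiation, -0.233 to 0.117 between differentiated and -0.0146 to 0.184 between undifferentiated genotypes, so the number pairs no samples there by the rule used. Signals low on the array limit what the probe sets of Hoxb13, Hoxc11, Hoxc12 and Hoxc13 can show.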

Other observations

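Hoxb8 had no probe set of its own, and the one it shares with Hoxb7 was left out of the 37 genes. That probe set read 6.09, 6.23 and 6.52 in D1D2KO differentiated samples, against 6.13, 6.29 and 6.19 in D1D2KO undifferentiated samples. WT differentiated samples read 5.88, 6.56 and 6.07, against 6.38, 6.14 and 6.14 in WT undifferentiated samples. The states overlapped in both genotypes.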
